A study of Mus musculus with 7 samples.

Results

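The enzymes described here remove superoxide and peroxides in the liver: catalase, 3 superoxide dismutases, 2 glutathione peroxidases and the peroxiredoxins. They were chosen by name, as 10 genes whose exact symbol was sought in the platform annotation of the probes. Of these, 7 were measured, Cat, Sod1, Sod2, Sod3, Gpx1, Gpx4 and Prdx3, among 16468 named genes and 22218 features in all. Gpx4 had 2 probes, which were averaged, and the other 6 had 1 probe each, 8 of the 23574 probes in all. Prdx1, Prdx5 and Prdx6 matched no probe by symbol and were not analysed here.

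Superoxide leaks from the respiratory chain and from oxidases, and superoxide dismutases turn it into hydrogen peroxide. Catalase, packed into peroxisomes, splits hydrogen peroxide directly. Glutathione peroxidases reduce peroxides with glutathione and most peroxiredoxins do so with thioredoxin. The liver is rich in all of these enzymes because its peroxisomes, mitochondria and cytochromes P450 produce much peroxide and superoxide.

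Liver RNA came from 3 mice with a Zfp90 transgene (1 female, 2 males) and 4 littermate wild-type (WT) mice (1 female, 3 males). Each animal had 1 array, on which its RNA was compared in 2 colours with a pool of liver RNA from 4 WT mice of both sexes, dye swaps being part of the design. The strain, the age of the animals and the promoter that drives the transgene are not given in the sources used here. Values are log2 ratios of the animal to that pool, so they set 1 animal against another for the same gene and say nothing of whether one enzyme is more abundant than another, or of whether hepatocyte markers were present. In a bulk liver sample, fewer cells of a type and less RNA per cell cannot be told apart.

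Array medians lay between -0.01 and 0.03. Zfp90 itself read 0.34, 0.58 and 0.45 in the transgenic female and the 2 transgenic males, against 0.37 on the array labelled WT female and -0.15, -0.29 and -0.11 in the WT males. On that measure the array labelled WT female did not stand with the WT males, and the genotype difference of each scavenging enzyme is therefore also given for the 5 males alone. Over all features, 3 pairs of arrays correlated below -0.3: the transgenic female with WT male 4 (-0.495), and the array labelled WT female with WT male 3 (-0.362) and WT male 2 (-0.312). The sign of the ratios was read from the Y-linked gene Kdm5d, at -2.54 and -3.22 on the 2 female arrays and 0.14 to 0.66 on the 5 male arrays. With every sign turned, each difference would change direction and keep its p.

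Whether the scavenging enzymes differed between transgenic and WT livers was asked with limma, in a model with genotype and sex fitted to all features. No call was made for any of the 7 genes: 0 of 7 passed an adjusted p of 0.05 (Benjamini-Hochberg). No feature passed (0% of 22218), and Zfp90 itself did not (0.48 ± 0.15 SE, adjusted p = 0.678), so that a missed threshold does not show that a gene was unchanged. Of the enzymes, 0 of 7 had an unadjusted p under 0.05, against 1536 features (6.91%). The sign was positive for 4 of 7 (the 3 dismutases and Gpx4), against 48.2% of all features, with a median difference of 0.07 for the 7 genes and -0.01 for all features. In all 7 genes the transgenic arrays overlapped the WT arrays. For comparison, 3.17% of features had every transgenic array above all WT arrays and 2.84% had every one below. Adjusted p-values ran from 0.731 for Gpx1 to 0.969 for Cat.

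**Figure D1:**
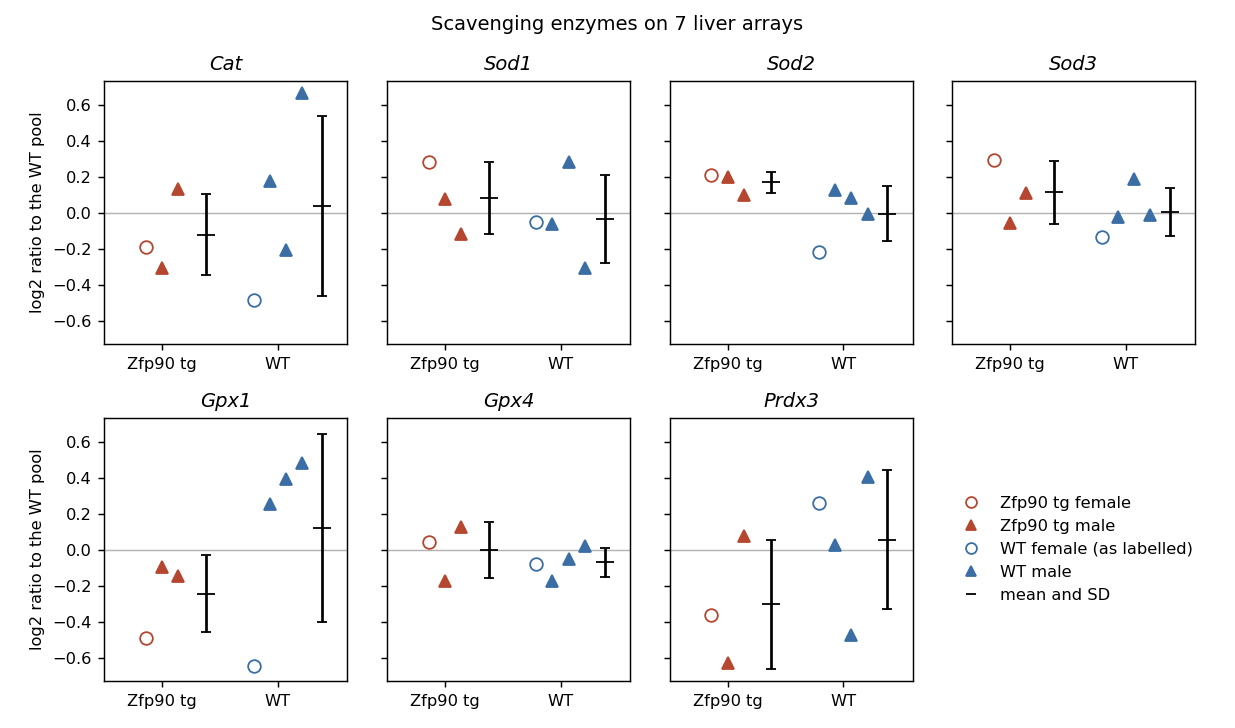
Log2 ratio to the WT pool (vertical axis) of each measured scavenging enzyme on the 7 arrays, Zfp90 transgenic left of WT; open circles are females, filled triangles males, and the bar is the mean with its SD (n = 3 and 4). Gpx1 shows both females lowest and the 3 WT males, at 0.25 to 0.49, above the 2 transgenic males, at -0.09 and -0.15.

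Gpx1 (NCBI gene 14775), the main cytosolic and mitochondrial glutathione peroxidase and a selenoprotein, had the smallest p of the 7 for genotype. It read -0.49 in the transgenic female and -0.09 and -0.15 in the transgenic males, against -0.65 on the array labelled WT female and 0.25, 0.39 and 0.49 in the WT males. Within the males the genotypes did not overlap, the transgenic animals being lower, while between the females the transgenic animal was higher by 0.16. The fitted difference over 7 arrays was -0.31 ± 0.14 SE (1.24-fold lower, 95% interval -0.64 to 0.03), adjusted p = 0.731 in limma. Fitted in the males alone it was -0.50 ± 0.11 SE (1.41-fold lower), with unadjusted p = 0.00394 and adjusted p = 0.365 in limma, so it did not pass there either. In that fit 1 of 7 genes had an unadjusted p under 0.05, against 6.96% of features, and 0 of 7 passed after adjustment, against 0.0315%. Transgenic males lay below all WT males in 11.4% of features and above them in 11.2%. The fit without either female is the same fit as that of the males alone.

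Between the sexes the fitted difference of Gpx1 was the largest of the 7 genes. Both females lay below all 5 males, with means of -0.57 in the females (n = 2) and 0.18 ± 0.29 in the males (SD, n = 5). The fitted difference, female minus male with genotype in the model, was -0.72 ± 0.16 SE (1.64-fold lower in females, 95% interval -1.08 to -0.35), at unadjusted p = 0.00218 and adjusted p = 0.172 in limma. Gpx1 did not pass, although 1.26% of features had a smaller p. Its size rested on the choice of female: without the transgenic female it was -1.03 with adjusted p = 0.0328, past the threshold, and without the array labelled WT female it was -0.37 with adjusted p = 0.627. Of the 7 genes, 0 passed in this comparison, against 78 features (0.351%), and 1, Gpx1, had an unadjusted p under 0.05, against 9.23%. Females lay below all males in 1 of the 7 and above them in 0, against 6.83% and 6.04% of features.

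Whether the genotype difference of Gpx1 was alike in both sexes was tested by the interaction of genotype and sex. The genotype difference was more positive in females by 0.65 ± 0.21 SE, with unadjusted p = 0.0188 and adjusted p = 0.487 in limma. None of the 7 genes passed (0.072% of features did), and 1 of 7 had an unadjusted p under 0.05, against 8.42%. With 1 female per genotype this test has no spread of its own among females and takes it from the males. Zfp90 itself differed by -0.02 between the 2 females and by 0.69 in the males, an interaction of -0.72. The female pair thus held no Zfp90 contrast, and the test cannot show whether an effect of the transgene on Gpx1 depends on sex.

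**Figure D2:**
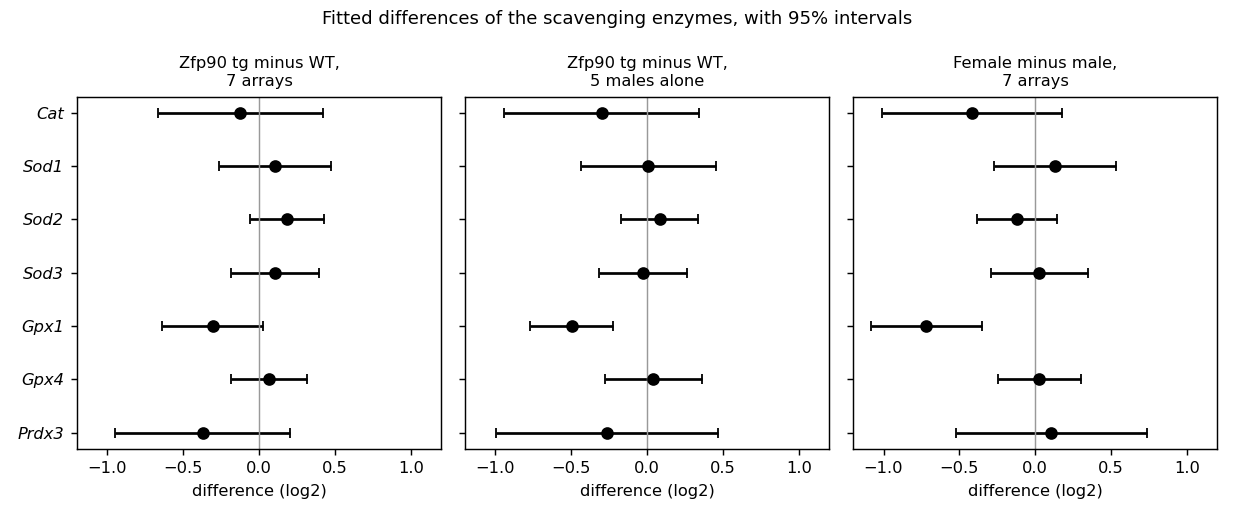
Fitted difference (horizontal axis, log2; point) with its 95% interval (bar) for each measured scavenging enzyme: Zfp90 transgenic minus WT over 7 arrays, the same in the 5 males alone, and female minus male over 7 arrays. The intervals of Gpx1 lie below 0 in the males alone and between the sexes, before any adjustment for the number of features, and reach 0.03 over all 7 arrays.

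The genes most like Gpx1 over the 7 arrays, by Pearson correlation of log2 ratios among named genes, were Slc22a30 (0.984), Cyp7b1 (0.978), Nek2 (0.977), Icos (0.977) and Ap3s1 (0.973). These correlations rest on 7 arrays that fall into clusters by sex and genotype, and are a description. Without the 2 arrays farthest from the median of Gpx1, WT male 4 and the array labelled WT female, they were 0.970 to 0.983 over 5 arrays. The 5 genes were chosen on all 7 arrays, so neither these values nor a shared order of the groups is a test. Cyp7b1, an oxysterol hydroxylase of bile acid synthesis that is more abundant in male mouse liver, read -2.75 in the transgenic female and -1.01 and -0.93 in the transgenic males, against -3.53 on the array labelled WT female and 0.33, 0.48 and 0.43 in the WT males. The order of the groups was the same as in Gpx1, with a wider span. Cyp7b1 passed for sex (-2.92 ± 0.41 SE, adjusted p = 0.042 in limma), and the other 4 did not (adjusted p from 0.086 to 0.606).

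**Figure D3:**
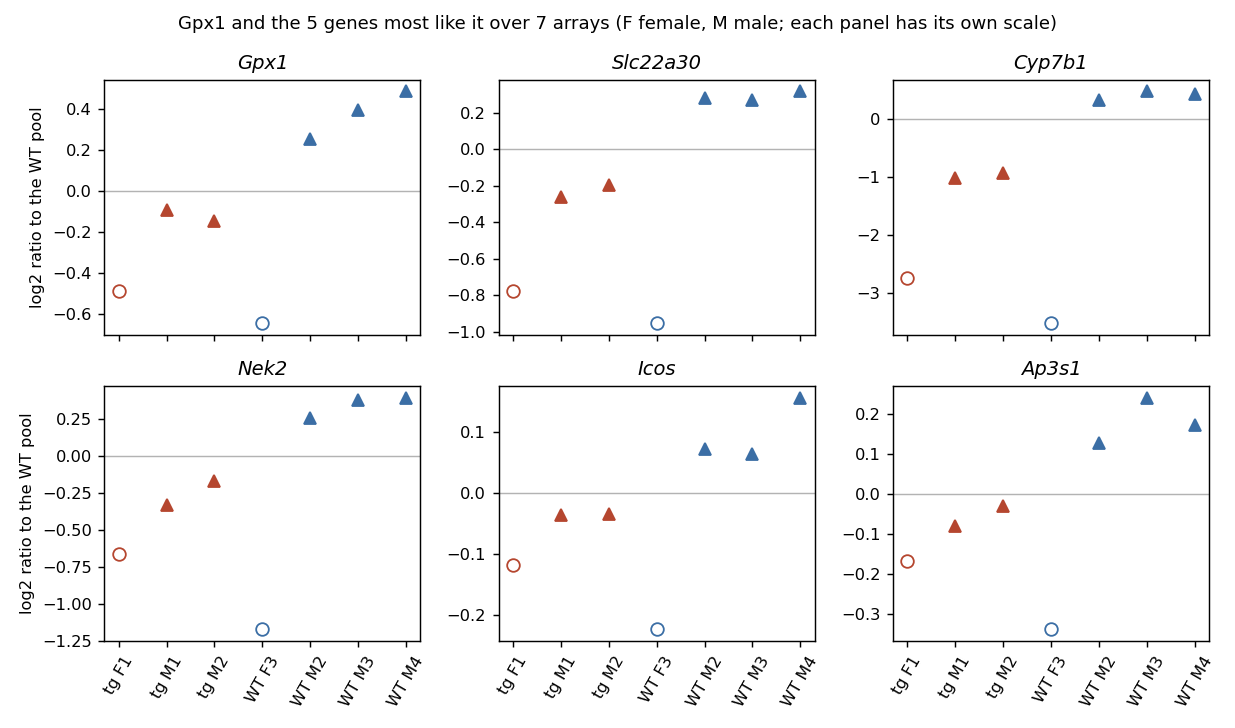
Log2 ratio to the WT pool (vertical axis, own scale per gene) of Gpx1 and the 5 genes with the most similar values over the 7 arrays, in the order transgenic female, transgenic males, WT female as labelled, WT males; red is Zfp90 transgenic, blue WT, open circles females, filled triangles males. In each gene both females are lowest, the 2 transgenic males lie above them and the 3 WT males lie highest, a likeness for which the 5 genes were chosen.

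Gpx4 (NCBI gene 625249), the glutathione peroxidase that reduces lipid peroxides within membranes, varied least of the 7. It read 0.05, -0.18 and 0.12 in the transgenic female and males, against -0.08 on the array labelled WT female and -0.17, -0.05 and 0.02 in the WT males. The groups overlapped throughout. The difference was 0.07 ± 0.11 SE (95% interval -0.19 to 0.32, adjusted p = 0.958 in limma), and the 2 probes gave 0.08 and 0.05. In the males alone it was 0.04 ± 0.13 SE. The SD among the 4 WT arrays, 0.08, was larger than in only 13.8% of features.

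Catalase (Cat, NCBI gene 12359) varied widely, with a spread among the WT arrays larger than in 95.8% of features, next to Gpx1 at 96.3%. It read -0.19 in the transgenic female and -0.30 and 0.13 in the transgenic males, against -0.49 on the array labelled WT female and 0.18, -0.20 and 0.67 in the WT males. The 4 WT arrays alone spanned 2.23-fold and enclosed all 3 transgenic values. The genotype difference was -0.12 ± 0.23 SE (95% interval -0.67 to 0.42, adjusted p = 0.969 in limma), and -0.30 ± 0.27 SE in the males alone. The female minus male difference was -0.42 ± 0.25 SE (adjusted p = 0.712). Red blood cells also carry much catalase, and their markers, of which 6 of 10 were measured, varied beside it: the median over those markers was 0.24, -0.13 and 0.18 on the transgenic arrays, against -0.41 on the array labelled WT female and 0.08, -0.18 and 0.23 in the WT males. All 6 had a positive genotype difference (median 0.17, 0 called), among them the globins Hba-a1 (0.40 ± 0.38 SE) and Hbb-b1 (0.33 ± 0.36 SE). The 3 arrays with a negative marker median were also negative for Cat. The transgenic female, with the highest marker median (0.24), was negative for Cat as well (-0.19). The part of red blood cells in the Cat values was not tested.

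Prdx3 (NCBI gene 11757), the mitochondrial peroxiredoxin, had the largest genotype difference of the 7 and also one of the widest spreads. It read -0.36 in the transgenic female and -0.63 and 0.08 in the transgenic males, against 0.26 on the array labelled WT female and 0.03, -0.47 and 0.41 in the WT males. The groups overlapped, transgenic male 1 being the lowest of the 7 and WT male 3 the next. The difference was -0.37 ± 0.25 SE (1.29-fold lower, 95% interval -0.95 to 0.21, adjusted p = 0.800 in limma), and -0.26 ± 0.30 SE in the males alone. Without transgenic male 2 it was -0.62, and without transgenic male 1 it was -0.19. Between the sexes it differed by 0.11 ± 0.27 SE (adjusted p = 0.934).

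The 3 superoxide dismutases all had small positive genotype differences that did not pass. Sod2 (NCBI gene 20656), the manganese enzyme of mitochondria, read 0.21 in the transgenic female and 0.20 and 0.10 in the transgenic males, against -0.21 on the array labelled WT female and 0.13, 0.08 and -0.01 in the WT males. Only WT male 2, at 0.13, lay above a transgenic animal. The difference was 0.18 ± 0.10 SE (1.14-fold, 95% interval -0.06 to 0.43, adjusted p = 0.761 in limma). In the males alone it was 0.08 ± 0.11 SE, and the array labelled WT female was the lowest of the 7.

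Sod1 (NCBI gene 20655), the copper and zinc enzyme of the cytosol, read 0.29 in the transgenic female and 0.08 and -0.12 in the transgenic males, against -0.05 on the array labelled WT female and -0.06, 0.29 and -0.31 in the WT males. Sod3 (NCBI gene 20657), the secreted enzyme bound to the extracellular matrix, read 0.30, -0.06 and 0.11 on the transgenic arrays, against -0.13 on the array labelled WT female and -0.02, 0.19 and -0.01 in the WT males. In both genes the groups overlapped. The differences were 0.11 ± 0.16 SE for Sod1 (adjusted p = 0.947) and 0.11 ± 0.12 SE for Sod3 (adjusted p = 0.915), and in the males alone they were 0.01 ± 0.19 SE and -0.03 ± 0.12 SE. The 95% intervals over 7 arrays, -0.26 to 0.47 for Sod1 and -0.18 to 0.40 for Sod3, allow changes of up to 1.39-fold and 1.32-fold upward.

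The enzymes did not move as a block across animals. Sod1 was above 0 on the same 3 arrays on which Prdx3 was below 0, the transgenic female, transgenic male 1 and WT male 3, and Cat was below 0 on these 3 and on the array labelled WT female. These 3 arrays, from both genotypes and both sexes, correlated with each other at 0.208 to 0.298 over all features and with WT male 4, where Cat and Prdx3 were highest and Sod1 lowest, at -0.495 to -0.091. Yet transgenic male 1 correlated more with transgenic male 2 (0.501), and at 0.22 with WT male 2. On both of those arrays Sod1 was below 0 and Prdx3 and Cat above 0, so the grouping by sign did not follow the highest correlation. The part of such array-wide likeness in the values of these 3 enzymes was not tested.

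Other peroxidases of the same families were all measured (8 of 8), and 0 passed. Gpx8, a glutathione peroxidase of the endoplasmic reticulum, was the 1 gene of the 8 in which the genotypes did not overlap, against 3.17% (above) and 2.84% (below) of all features: it read 0.18, 0.33 and 0.32 on the transgenic arrays, against 0.11 on the array labelled WT female and -0.07, 0.06 and -0.07 in the WT males. Its difference was 0.27 ± 0.10 SE (1.21-fold, unadjusted p = 0.0257, adjusted p = 0.718 in limma). Its relative Gpx7 differed by 0.31 ± 0.20 SE between the genotypes, which overlapped. Gpx7 separated the sexes, with 0.83 and 0.54 in the transgenic and WT females and -0.52 to 0.46 in the males. Its sex difference was 0.80 ± 0.22 SE (adjusted p = 0.288 in limma). Prdx4, picked out after its values were seen, separated the sexes the other way, lower in females (-0.22 ± 0.10 SE). Females lay above all males in 6.04% of all features and below them in 6.83%. The plasma enzyme Gpx3 differed by 0.15 ± 0.11 SE between the genotypes. Prdx2, a cytosolic peroxiredoxin abundant in red blood cells that was picked out after its values were seen, was at -0.40, -0.18 and -0.16 on the transgenic arrays, against 0.12 on the array labelled WT female and 0.00, -0.46 and 0.24 in the WT males, a difference of -0.22 ± 0.18 SE.

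The genes that supply and reduce these enzymes were read in 7 lists with 107 measured genes, the peroxidases above included. None was called for genotype, 12 (11.2%) had an unadjusted p under 0.05, against 6.91% of all features, 49 (45.8%) had a positive difference, against 48.2%, and the median was -0.02. Transgenic arrays lay above all WT arrays in 6 genes (5.61%, against 3.17% of all features) and below in 3 (2.80%, against 2.84%). Those higher were Gpx8, Glrx2, Msrb2, Pgd, Pipox and Sephs2, and those lower were Oplah, Selenop and Sirt3. Glrx2, Pipox and Oplah were picked out here after their values were seen.

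**Figure D4:**
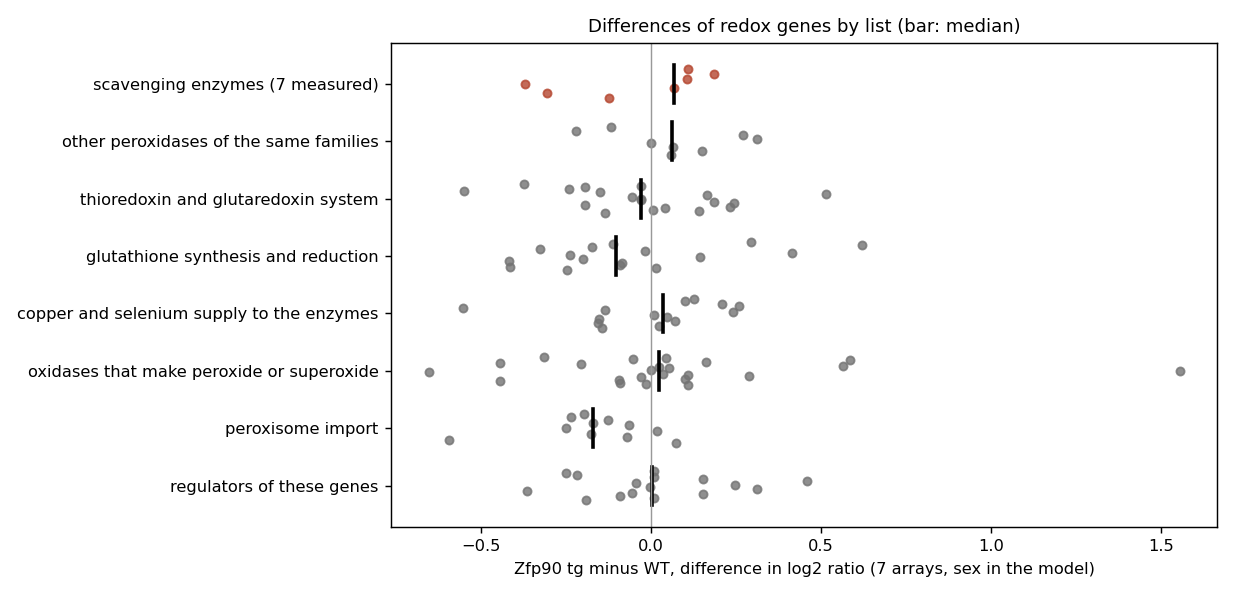
Difference in log2 ratio, Zfp90 transgenic minus WT over 7 arrays with sex in the model (horizontal axis), of every measured gene in the scavenging enzymes (red) and in 7 lists of related redox genes (grey), with the median of each list as a bar. Medians run from -0.17 for peroxisome import to 0.07 for the scavenging enzymes. The gene at 1.56 is Hao2, in which the transgenic and WT arrays overlapped. Within the males it did not overlap, at -2.85 and -1.63 in the transgenic against -4.33, -4.16 and -4.47 in the WT. Transgenic males lay above all WT males in 11.2% of features.

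Selenium and copper supply had 9 of 14 genes on the positive side (median 0.04, 0 called). Sephs2, which makes the selenium donor for selenocysteine, read 0.31, 0.28 and 0.37 on the transgenic arrays, against -0.18 on the array labelled WT female and 0.24, 0.12 and 0.14 in the WT males (0.26 ± 0.10 SE, adjusted p = 0.720). Selenop, the plasma selenium carrier made by hepatocytes, read -0.10, -0.11 and -0.05 on the transgenic arrays, against 0.08 on the array labelled WT female and -0.01, 0.11 and 0.03 in the WT males (-0.14 ± 0.08 SE, adjusted p = 0.788). Sephs1, a relative of Sephs2, differed by -0.55 ± 0.24 SE. Neither selenium gene that separated the genotypes passed the threshold.

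Glutathione synthesis and reduction, with the enzymes that supply NADPH, had 11 of 16 genes on the negative side (median -0.10, 0 called). In this list 4 genes had an unadjusted p under 0.05 in limma, against 6.91% of all features. Gclc, 1 of these 4 and picked out after its values were seen, differed by -0.42 ± 0.18 SE. Pgd, which makes NADPH in the pentose phosphate pathway, differed by 0.62 ± 0.22 SE and Me1, the cytosolic malic enzyme, by 0.41 ± 0.13 SE, whereas the mitochondrial transhydrogenase Nnt differed by -0.33 ± 0.14 SE (adjusted p = 0.677 to 0.721 in limma). In the thioredoxin and glutaredoxin system 8 of 19 genes were positive (median -0.03, 0 called). The methionine sulfoxide reductase Msrb2 differed by 0.24 ± 0.09 SE, thioredoxin Txn1 by 0.52 ± 0.23 SE and the reductase Txnrd3 by -0.37 ± 0.17 SE.

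Peroxisome import had 9 of 11 genes on the negative side (median -0.17, 0 called), and 0 with an unadjusted p under 0.05, against 6.91% of all features. Pex13 was at -0.60 ± 0.28 SE, Pex16 at -0.18 ± 0.12 SE and Pex3 at -0.17 ± 0.12 SE. Of the oxidases that make peroxide or superoxide, 12 of 23 were positive (median 0.02, 0 called), with Hao2 at 1.56 ± 0.40 SE, Ddo at 0.29 ± 0.12 SE and Hao1 at -0.65 ± 0.28 SE. This list held the 3 genes of the 7 lists that were called between the sexes in limma (2.80% of 107, against 0.351% of all features). The hydroxyacid oxidase Hao2 was 40.8-fold higher in females (adjusted p = 0.00296), while the NADPH oxidase Nox4 was 4.44-fold lower (adjusted p = 0.0119) and the aldehyde oxidase Aox3 3.84-fold lower (adjusted p = 0.0453), Nox4 and Aox3 being picked out after their values were seen. Among the regulators 8 of 16 were positive (median 0.00, 0 called). Ppargc1a, a coactivator of mitochondrial and antioxidant genes, differed by 0.46 ± 0.14 SE, the mitochondrial deacetylase Sirt3 by -0.25 ± 0.10 SE and Keap1, the repressor of NRF2, by 0.31 ± 0.17 SE.

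Markers of other liver cells were read beside these values. Macrophage and Kupffer cell markers had 12 of 15 genes positive (median 0.46, 0 called), with array medians from 0.19 to 0.43 on the transgenic arrays and from -0.68 to 0.82 on the WT arrays, where the highest was the array labelled WT female. The largest genotype differences by p were Cd163 (1.16 ± 0.19 SE), Marco (1.12 ± 0.33 SE) and C1qa (0.90 ± 0.27 SE). In Marco and C1qa the genotypes overlapped through the array labelled WT female, and within the males they did not. Transgenic males lay above all WT males in 11 of the 15 markers, against 11.2% of features, and below them in 0, against 11.4%. Between the sexes all 15 markers were higher in females (median 0.80, 0 called), with Marco at 2.05 ± 0.36 SE. On both female arrays and both transgenic males the macrophage marker median was above 0 and Gpx1 below 0, and in the 3 WT males the reverse held. The part of macrophages in the Gpx1 values was not tested. Hepatocyte markers had 5 of 12 genes positive (median -0.08, 0 called), with Cps1 at 0.59 ± 0.11 SE, Cyp2e1 at -0.49 ± 0.11 SE and Ass1 at 0.60 ± 0.15 SE. The remaining lists also held 0 genes called for genotype, with medians of 0.00 (endothelium), 0.18 (stellate cell and vessel wall), 0.02 (lymphocyte), 0.02 (neutrophil) and 0.09 (bile duct).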

How the data were processed

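The deposited table holds 1 log10 ratio to the WT pool per probe and animal (23574 probes, 0 missing values). Per the labels, spin-column RNA was treated with DNase, and the pool carried Cy3 and each animal Cy5. These labels name only that dye orientation, although dye swaps were part of the design. Background correction, normalization, centring and the handling of dye swaps by the authors are not given in the sources used here. The log10 base was read from values that end at exactly -2 and 2, and array medians ran from -0.0042 to 0.0093. Scanner intensities were not used here, so signal over background is unknown. Precision is limited by how many arrays there are.

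The authors' log10 ratios were converted to log2 (times 3.32) and probes of 1 gene averaged. GEO's platform annotation gave 1 symbol to 17824 probes, several to 50 and none to 5700. A comparison with NCBI's gene table for GRCm38.p6, by gene number, changed 0 symbols. Differences were fitted with limma 3.58.1 (R 4.3.3, lmFit and eBayes) with genotype and sex, and the interaction in a model of its own, with Benjamini-Hochberg adjustment over all 22218 features. The fit was checked on simulated data with independent noise. That check required recovery only of changes larger than any fitted for these enzymes, so it does not give the power at their size.

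The members and lists were chosen with earlier results of these data known. Genes named were all members, Zfp90, up to 3 genes with the smallest p from each list, and the 5 most like the member with the smallest p. Alternatives were leaving out each animal, fitting the males alone, dropping sex or genotype from the model, centring arrays on their medians, quantile normalization, robust eBayes, each Gpx4 probe alone and only the named genes.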

Additional observations from a re-analysis of the deposited data

How the results depend on the processing

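Under every alternative that was run for genotype, 0 of the 7 enzymes passed an adjusted p of 0.05 (lowest 0.266). Of 93 such values 87 kept their direction. Robust eBayes, here and between the sexes, and the fit of named genes alone could not move a difference. Males alone and leaving out either female were the same fit, counted each time, so the 93 values are not separate checks. Sod3 changed sign in the males alone (-0.0261). Leaving out each animal gave ranges of -0.30 to 0.0714 for Cat (above 0 without transgenic male 1 or WT male 4), -0.0261 to 0.21 for Sod3 (below 0 without either female), -0.0155 to 0.17 for Gpx4 (below 0 without transgenic male 2), 0.01 to 0.22 for Sod1, 0.08 to 0.25 for Sod2, -0.50 to -0.22 for Gpx1 and -0.62 to -0.19 for Prdx3. Between the sexes 10 of 77 values changed sign: Sod3 under quantile normalization (-0.0080), and values within the ranges for leaving out an animal, -0.0239 to 0.31 for Sod1, -0.28 to 0.0618 for Sod2, -0.19 to 0.27 for Sod3, -0.0389 to 0.0815 for Gpx4 and -0.0845 to 0.28 for Prdx3. Gpx1 kept its sign there (-1.03 to -0.37), and passed only without the transgenic female. Over all features, the count called for genotype was 7 in the males alone and 0 to 7 on leaving out an animal (7 without either female). For sex it was 47 under quantile normalization and 36 to 254 on leaving out an animal: 254 without the transgenic female, 36 without the array labelled WT female, and 45, 39 and 48 without transgenic male 2, WT male 2 and WT male 4. For the interaction it was 3 under quantile normalization and, leaving out each male (an alternative chosen after seeing the data), 4 (without WT male 2) to 77 (without WT male 4), against 16 with all animals. The causes of these moves were not tested. No paired analysis was possible because the genotypes share only 1 replicate number.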
